A study of Bombus terrestris with 70 samples.

Results

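Brain transcriptomes of egg removal queens of the bumblebee Bombus terrestris were compared between a late and an early point of their cohort. The 11 brain libraries of the egg removal treatment were chosen by tissue, treatment and time point from the 70 samples that the labels list, of which 68 have a column in the deposited tables. They comprised 5 queens at TP2, when 60% of the cohort had died, and 6 queens at TP1, when 10% had died. Egg removal (R) means that a queen's eggs were taken from her, which per the labels raises her costs of reproduction. The 5 control queens at TP2 and the 6 control queens at TP1 (C) had their eggs removed and put back, so they met the same disturbance without the loss. Each library held the brain of a single queen, so TP2 and TP1 queens were different animals and the TP2 queens were sampled after most of their cohort had died. The labels give cohort deaths in place of an age in days. The comparison asks which brain genes differ between old and young queens when reproduction is made costly.

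A bumblebee queen founds her colony alone, lays its eggs and, once workers emerge, lives on beside them. Queens of social insects combine high fecundity with long life, whereas in many other animals reproduction shortens life. The brain takes part in this through neurosecretory cells that control the glands producing juvenile hormone, which in bumblebees promotes egg production. Kr-h1, a zinc finger transcription factor, is an early target of that hormone.

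Values are normalized read counts per gene, scaled within the brain table, so each gene can be compared between queens but levels of different genes are not per length. Of the 10435 genes in the brain table, 10388 had a mean of at least 1 in at least 1 of the 4 brain groups and were tested. Estimated depth was 38.9 to 54.1 M reads per library at TP2 and 40.7 to 54.7 M reads at TP1. None of 8 library measures, among them depth, the share of the 10 highest genes and the number of genes at 0, passed an exact two-sided permutation test between TP2 and TP1 (adjusted p from 0.915 to 0.957). A principal component analysis of the libraries of all 4 brain groups put 30.9% of the variance on its first axis. That axis did not part the time points, at -32.4 to 31.8 in egg removal TP2 libraries and -28.4 to 60.2 in egg removal TP1 libraries. All libraries with LOC100644055 as their highest gene were positive on it, and all others were negative. On the second axis, with 13.1%, egg removal TP2 libraries lay at -19.4 to 20 and egg removal TP1 libraries at -36.7 to -1.91. Tables of product names were not used here, so the labelled tissue could not be checked against neuronal, glial or photoreceptor markers. The RNA comes from whole brains, so fewer cells of a type and less RNA per cell cannot be told apart.

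Few genes changed. At TP2, 5 genes rose in egg removal brains and none fell, at an adjusted p under 0.05 (limma with Benjamini-Hochberg adjustment, 5 TP2 and 6 TP1 queens). That is 0.0481% of the 10388 genes tested, all of it higher at TP2 (0.0481%), with 0% lower. With weights per library 46 genes passed, 31 higher and 15 lower. The 5 genes were LOC100642296, LOC100648224, LOC105666762, LOC100648333 and LOC100651915, with changes between 1.58-fold and 4.83-fold. All are protein-coding in the RefSeq gene table, which gives them no product name, and the reads of each may include reads of a near-identical copy. The TP2 and TP1 queens did not overlap in any of the 5. By comparison, TP2 queens lay wholly above TP1 queens in 0.52% of all genes and wholly below them in 0.231%. The calls rest on a spread estimated from all 4 brain groups: with the 11 egg removal libraries fitted alone, no gene passed, the smallest adjusted p was 0.0583 and 641 genes had an unadjusted p under 0.05.

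LOC100642296 had the largest change of the called genes. Its normalized read counts were 826, 1688, 699, 1040 and 1341 in TP2 queens, against 268, 128, 433, 265, 211 and 134 in TP1 queens. The lowest TP2 queen was above the highest TP1 queen. The means were 1119 ± 400 at TP2 and 240 ± 112 at TP1 (SD, n = 5 and 6), a log2 change of 2.27 (SE 0.31, adjusted p = 0.00288, limma). The gene also rose in control brains, to 3068 to 7085 at TP2 against 457 to 1019 at TP1 (log2 change 2.97, adjusted p = 6.88e-05, limma). Egg removal queens thus had less of it than control queens at both times, and their TP2 mean exceeded the control TP1 mean of 680.

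LOC100648224 behaved alike. It had 2942, 2220, 1787, 2001 and 4073 normalized read counts in TP2 queens, against 986, 872, 504, 889, 306 and 851 in TP1 queens. Every TP2 queen was above every TP1 queen, with a log2 change of 1.87 (SE 0.28, adjusted p = 0.00591, limma). In control brains it rose by a log2 change of 2.00 (adjusted p = 0.000957, limma), with means of 13098 ± 2649 at TP2 and 3328 ± 912 at TP1 (SD, n = 5 and 6). The egg removal means, 2604 ± 929 at TP2 and 735 ± 267 at TP1 (SD, n = 5 and 6), were lower at each time.

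LOC100648333 was the third gene called in both treatments. TP2 queens had 498, 487, 608, 523 and 542 normalized read counts, against 260, 193, 205, 262, 356 and 205 in TP1 queens. The TP2 values were close together, at 532 ± 48.0, and TP1 queens averaged 247 ± 61.2 (SD, n = 5 and 6). The log2 change was 1.13 (SE 0.16, adjusted p = 0.00288, limma) in egg removal and 1.01 (adjusted p = 0.00178, limma) in control. With all libraries scaled to the same total, the egg removal change of LOC100648333 was 1.21 with an adjusted p of 0.0677 (limma).

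LOC105666762 and LOC100651915 passed in egg removal and missed the threshold in control. LOC105666762 had 681, 920, 516, 843 and 807 normalized read counts in TP2 queens, against 347, 264, 216, 208, 497 and 197 in TP1 queens. TP1 replicate 5, at 497, came near the lowest TP2 queen, at 516. The log2 change was 1.44 (SE 0.22, adjusted p = 0.00591, limma), against 0.71 in control (adjusted p = 0.0847, limma). The difference between the treatments, 0.73 (95% interval 0.07 to 1.38), did not pass over all genes (adjusted p = 0.999, limma).

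LOC100651915 had the highest read counts of the 5, not per length, and the smallest change. It had 19541, 24716, 19447, 22377 and 21474 normalized read counts in TP2 queens, against 12756, 12332, 15301, 12114, 16320 and 13120 in TP1 queens. All TP2 queens were above all TP1 queens, with a log2 change of 0.66 (SE 0.11, adjusted p = 0.0148, limma), against 0.33 in control (adjusted p = 0.106, limma). This call was the least stable. It missed the threshold with the libraries scaled to the same total (adjusted p = 1, limma) and with totals equalised after leaving out LOC100644055 (0.319). It also missed it without TP2 replicate 2 or 4, or without TP1 replicate 1, 2, 4 or 6, at adjusted p between 0.0511 and 0.0775. The log2 change of LOC100651915 lay between 0.61 and 0.74 under all 36 alternatives run.

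**Figure D1:**
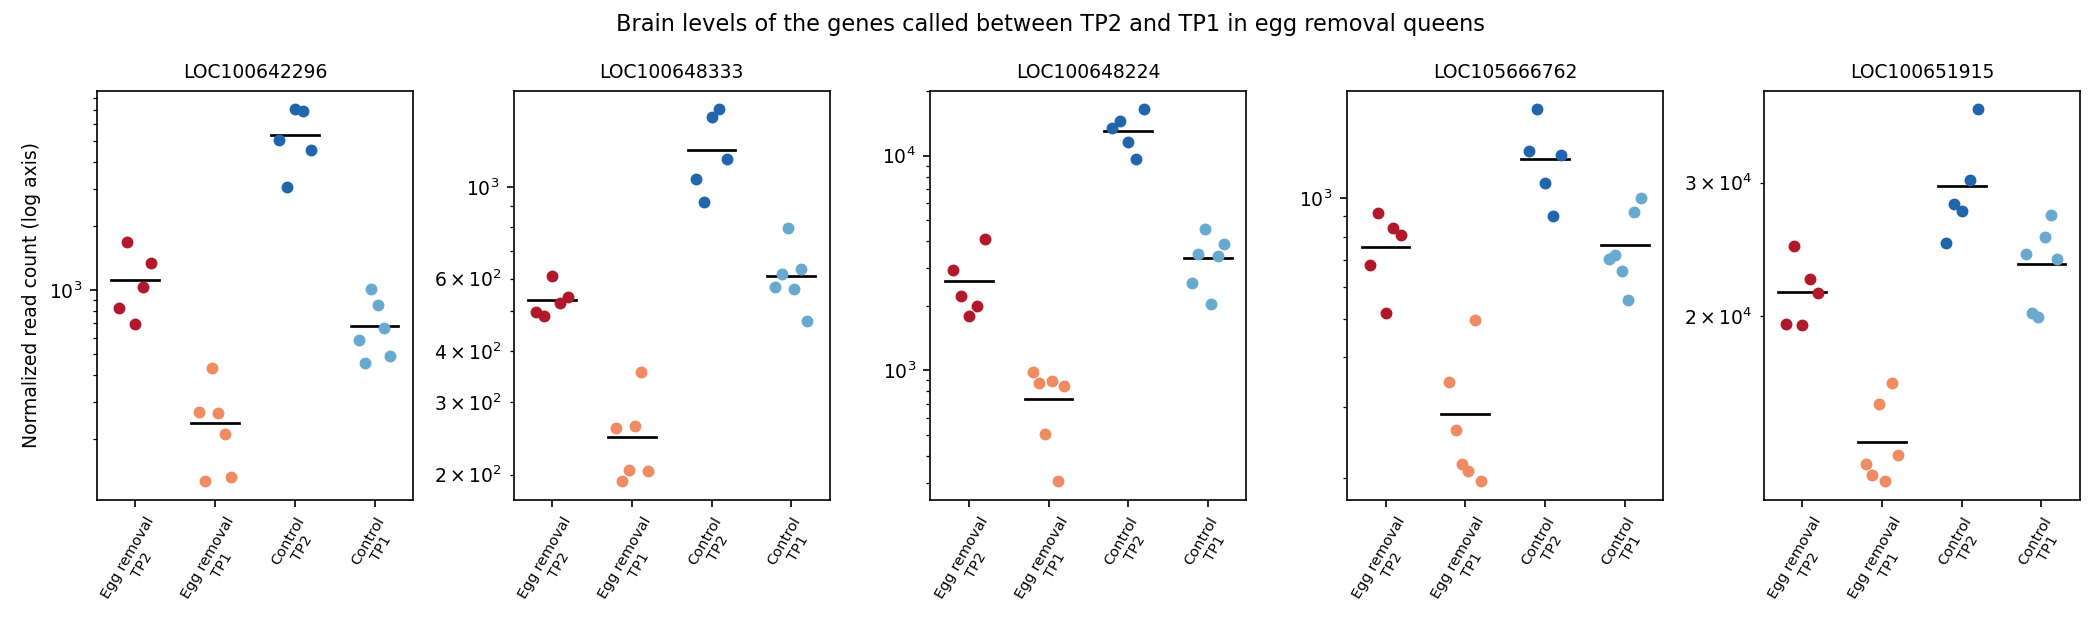
Normalized read counts (log axis) of the 5 genes called between TP2 and TP1 in egg removal brains, 1 point per queen and a line at each group mean, in egg removal TP2 and TP1 and control TP2 and TP1. In every panel the 5 egg removal TP2 queens lie above the 6 egg removal TP1 queens, and the egg removal TP1 mean is the lowest of the 4 means.

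The 5 genes had a like order of levels. Their mean in egg removal was below that in control at TP2 in 5 of 5 genes and at TP1 in 5 of 5. In 4 of 5, all but LOC100642296, the egg removal TP2 mean was also below the control TP1 mean. The order was not particular to these 5. Among the 10 further genes on the higher side, named below, the egg removal mean was below control in 10 at TP1 and 8 at TP2. The egg removal TP2 mean was below the control TP1 mean in 8 of those 10. The share over all genes tested was not counted. The egg removal TP1 values took part in choosing these genes, so their order against control is a description. LOC105666762 and LOC100651915 lie on the same chromosome in the RefSeq gene table, and no other pair of the 5 does. The gene beside LOC105666762, LOC100651350, had a log2 change of 0.73 (adjusted p = 0.152, limma), and LOC100648450, beside LOC100648333, one of 0.76 (adjusted p = 0.448, limma). Those were the largest changes among the tested neighbours up to 2 genes away. The remaining neighbours lay between -0.054 and 0.45, with -0.0081 for LOC100651228 on the other side of LOC105666762. A shared change of neighbouring genes was not tested.

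Fat body and ovary tables, each scaled separately, gave other levels for these genes. LOC100642296 had a median of 763 normalized read counts in the brain, 17.7 in fat body and 145 in ovary. LOC105666762 had 714 in the brain, 21.6 in fat body and 5.23 in ovary. LOC100651915 ranked 206 by median in the brain table, 868 in the fat body table and 6152 in the ovary table. In the egg removal fat body, LOC100648224 averaged 1555 at TP2 and 528 at TP1, LOC100648333 averaged 470 at TP2 and 177 at TP1, and LOC100651915 averaged 4847 at TP2 and 7539 at TP1. These levels were not tested.

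The next genes by p-value came close without passing. Of the 10 further genes with the smallest unadjusted p on the higher side, LOC100651241 had 906, 1102, 572, 839 and 1016 normalized read counts in TP2 queens, against 418, 424, 441, 491, 508 and 548 in TP1 queens. Those groups did not overlap (log2 change 0.88, SE 0.17, adjusted p = 0.0507, limma). LOC100644424 had 612 to 1387 at TP2, against 401 to 571 at TP1 (log2 change 0.85, adjusted p = 0.0706, limma). The other 8 were LOC100648399, LOC100645606, LOC100651942, LOC100644630, LOC100642641, LOC100649161, LOC100647612 and LOC100647147. Over all 10 the log2 changes ran between 0.33 and 2.10 and the adjusted p between 0.0507 and 0.151 (limma). The widest was that of LOC100649161, with 47.4 to 259 at TP2 and 10.0 to 65.2 at TP1. Of these 10 genes, 9 had the same direction in control, against 65.3% of all genes tested.

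On the lower side, LOC100650015 had 1.01, 5.25, 1.34, 2.18 and 3.41 normalized read counts in TP2 queens, against 15.4, 15.8, 14.3, 13.8, 22 and 20 in TP1 queens. The groups were far apart, yet the values are near the lower end of the table and the change did not pass (log2 change -2.40, SE 0.48, adjusted p = 0.0706, limma). LOC100645351 had 4673 to 5701 at TP2, against 5933 to 7990 at TP1 (log2 change -0.47, adjusted p = 0.105, limma). The other 8 were LOC100649129, LOC100646926, LOC100643931, LOC110120345, LOC100647556, LOC100648166, LOC100650119 and LOC100649069. The 10 log2 changes ran between -2.40 and -0.29, with adjusted p between 0.0706 and 0.325 (limma). Of these 10 genes, 8 had the same direction in control.

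The number of calls depended on a single queen. TP1 replicate 5 was the TP1 library nearest to the TP2 values in 15 of the 25 genes named so far, namely the 5 called genes and the next 10 on either side. Without it 24 genes passed, 19 higher and 5 lower at TP2. TP2 replicate 3 was likewise the TP2 library nearest to the TP1 values in 12 of these 25 genes. The 25 genes were chosen by p-value from these same libraries, so both counts are a description. They were not made over all genes. Without TP2 replicate 3, 7 genes passed, all higher at TP2. Leaving out control TP2 replicate 6 gave 8 calls, 7 higher and 1 lower, and the other 20 libraries left 4 to 7 calls. LOC100642296, LOC100648224, LOC100648333 and LOC105666762 passed in all 22 of these fits, and LOC100651915 in 16.

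**Figure D2:**
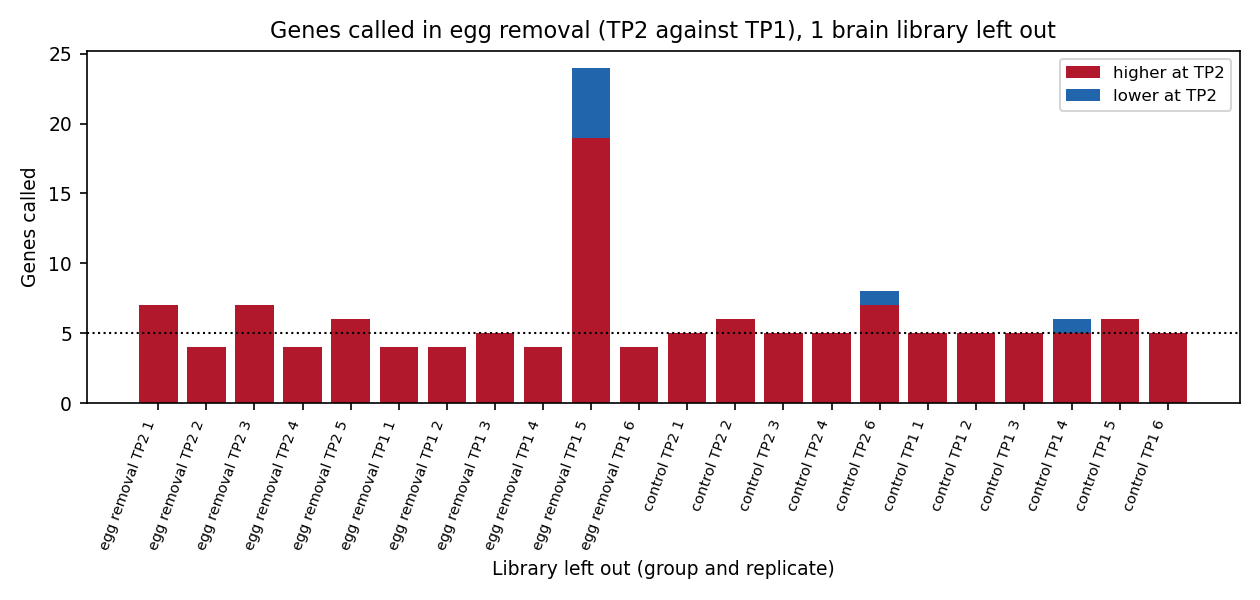
Number of genes called between TP2 and TP1 in egg removal brains (vertical axis) with each of the 22 brain libraries left out in turn (horizontal axis), split into genes higher and lower at TP2. The dotted line marks the 5 genes called with all libraries, and the bar without egg removal TP1 replicate 5 reaches 24.

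The small number of calls went with small estimated changes. The median log2 change was -0.0043 over all genes, 48.8% of genes were higher at TP2, and the median size of a change was 0.0877 on the log2 scale, against a median SE of 0.123. In 82.5% of genes, 8575 in all, the 95% interval of the change lay inside 2-fold in either direction (log2 of -1 to 1). In 64.8% it lay inside a log2 change of -0.5 to 0.5. An estimate of at least 1 was found in 133 genes and of -1 or lower in 48, and the whole interval lay beyond 1 in either direction in 4 genes, LOC100642296, LOC100648224, LOC100649161 and LOC100650015.

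How far a change could be bounded depended on the level. Among the 5412 genes with a mean of 1000 to 10000 normalized read counts, the median SE was 0.0926 and 96.6% of intervals lay inside 2-fold. Among the 682 genes with a mean under 10, the median SE was 0.519, 7.48% of intervals lay inside 2-fold, and none of the genes passed. The 1045 genes between 10 and 100 also gave no call, with 45.2% of intervals inside 2-fold. A 2-fold change of a weakly expressed brain gene was therefore mostly not detectable here, whereas for most genes above 100 the interval left no room for one.

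**Figure D3:**
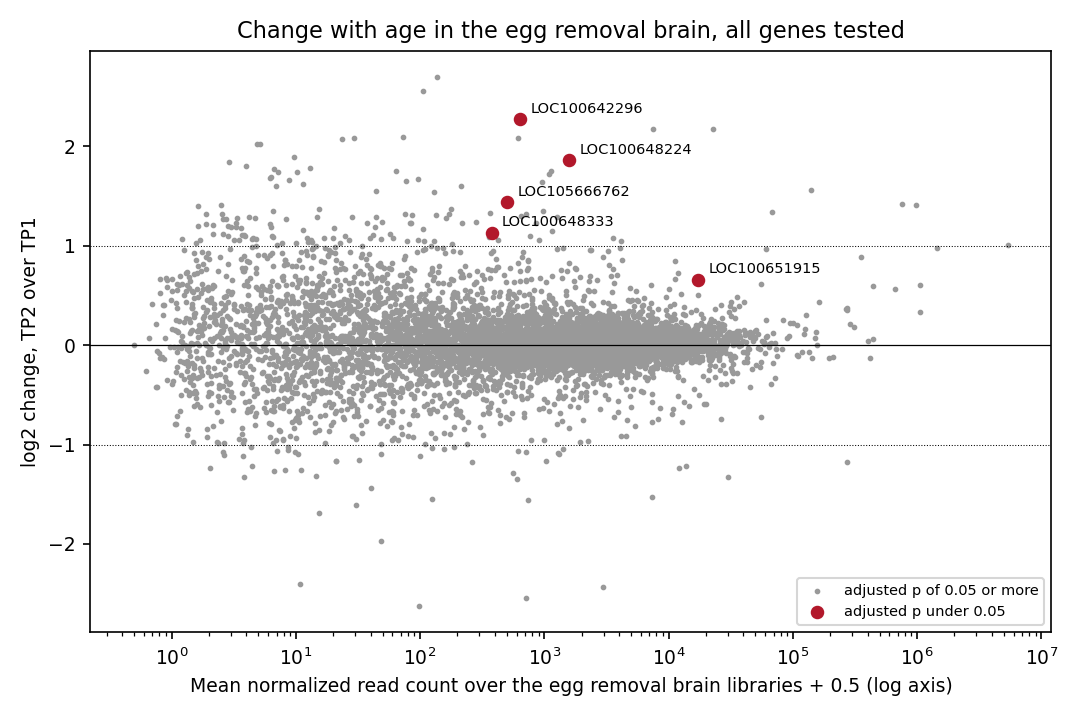
Log2 change, egg removal TP2 over TP1 (vertical axis), against the mean normalized read count over the 11 libraries plus 0.5 (log axis), 1 point per gene tested, with dotted lines at 1 and -1. The 5 called genes are in red above the zero line, and the scatter is widest among genes with low means.

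The spread between queens was not larger in the late group. The median SD of log2 values within a group was 0.151 at TP2 and 0.206 at TP1 in egg removal, and 0.24 at TP2 and 0.176 at TP1 in control. In egg removal the SD was larger at TP2 in 29% of genes. No gene was present in all queens of one egg removal group and at 0 in all queens of the other.

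Control queens, which differed from the egg removal queens in having their eggs returned, showed more calls between TP2 and TP1. Both points were set by cohort deaths, so the ages in days may differ between the treatments. In control brains 267 genes passed, 2.57% of those tested, with 181 higher (1.74%) and 86 lower (0.828%) at TP2 (limma, adjusted p under 0.05, 5 TP2 and 6 TP1 queens). Leaving out 1 library gave 140 to 653 control calls, the 653 without control TP2 replicate 3, with 327 higher and 326 lower. The control split was not stable under other settings either. Scaling to equal totals gave 26 higher and 1 lower. The split was 36 higher and 1 lower with totals equalised without LOC100644055, 563 higher and 593 lower with weights per library, and 342 higher and 315 lower with LOC100644055 as a covariate. The median size of a log2 change was 0.0877 in egg removal and 0.136 in control. At an unadjusted p under 0.05 there were 607 genes in egg removal (5.84%), 354 of them higher (3.41%) and 253 lower (2.44%), and 1819 in control (17.5%), 1013 of them higher (9.75%) and 806 lower (7.76%). In control, TP2 queens lay wholly above TP1 queens in 1.81% of genes and wholly below them in 1.12%. An even spread of p-values would put 519.4 genes in that bin.

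The difference between the treatments was tested gene by gene as an interaction, the change with time in egg removal minus that in control. No gene passed (0 of 10388, 0%), the smallest adjusted p was 0.0709 and 446 genes (4.29%) had an unadjusted p under 0.05, 169 of them positive (1.63%) and 277 negative (2.67%) (limma). The numbers of calls thus differ between treatments, and a difference in the change of any single gene was not detected. The 3 genes called in both treatments are 60% of the egg removal calls and 1.12% of the control calls.

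**Figure D4:**
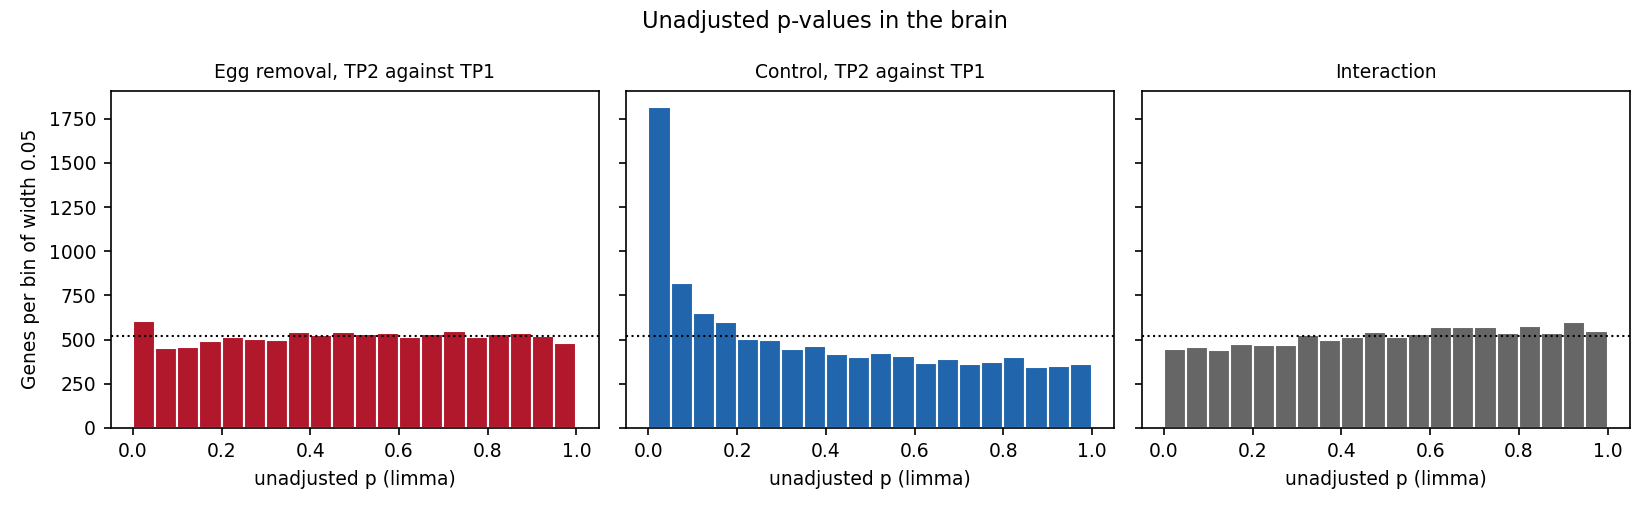
Number of genes (vertical axis) per bin of unadjusted limma p-value of width 0.05 (horizontal axis) for TP2 against TP1 in egg removal, the same in control, and the interaction. The dotted line marks an even spread of 519.4 genes per bin. The lowest bin holds 607 genes in egg removal, 1819 in control and 446 for the interaction.

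The genes that moved in control brains mostly pointed the same way in egg removal brains, by smaller estimates. Of the 181 genes that rose in control, 157 (86.7%) had a positive change in egg removal, with a median log2 change of 0.17 in egg removal and 0.63 in control. Of the 86 that fell in control, 77 (89.5%) had a negative change in egg removal, with medians of -0.11 in egg removal and -0.38 in control. Over all genes tested, 65.3% had the same sign in both treatments. The control values chose these 267 genes, which tends to enlarge their control estimates, so the sizes are set side by side without a test. The 2 comparisons share no libraries.

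LOC100648836 had the smallest p of the genes called in control after LOC100642296. It had 1906, 1802, 1834, 1935 and 1873 normalized read counts in egg removal TP2 queens, against 1881, 1728, 1692, 1847, 1840 and 1845 in egg removal TP1 queens, and these groups overlapped. The log2 change was 0.05 in egg removal (95% interval -0.04 to 0.14, adjusted p = 0.994, limma) and 0.36 in control (adjusted p = 0.000186, limma). The interaction of -0.30 did not pass (adjusted p = 0.214). LOC100648369 had log2 changes of 0.03 in egg removal and 0.41 in control, LOC100651746 of 0.20 in egg removal and 0.51 in control, and LOC100650685 of 0.30 in egg removal and 0.84 in control. On the lower side, LOC100644749 had -0.59 in egg removal and -1.03 in control, and LOC100648980 -0.48 in egg removal and -0.86 in control. LOC100650361 had -0.21 in egg removal and -0.62 in control, LOC105666912 -0.16 in egg removal and -0.38 in control, and LOC100644623 -0.10 in egg removal and -0.31 in control. These 9 genes were chosen among those called in control, so their passing there is no result. None of the 9 passed in egg removal, where 0.0481% of all genes tested did. With libraries scaled to the same total, none of the 9 passed in control either, although the control estimates stayed near their size, for example 0.45 for LOC100648836, 0.61 for LOC100651746, 0.94 for LOC100650685 and -0.94 for LOC100644749.

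**Figure D5:**
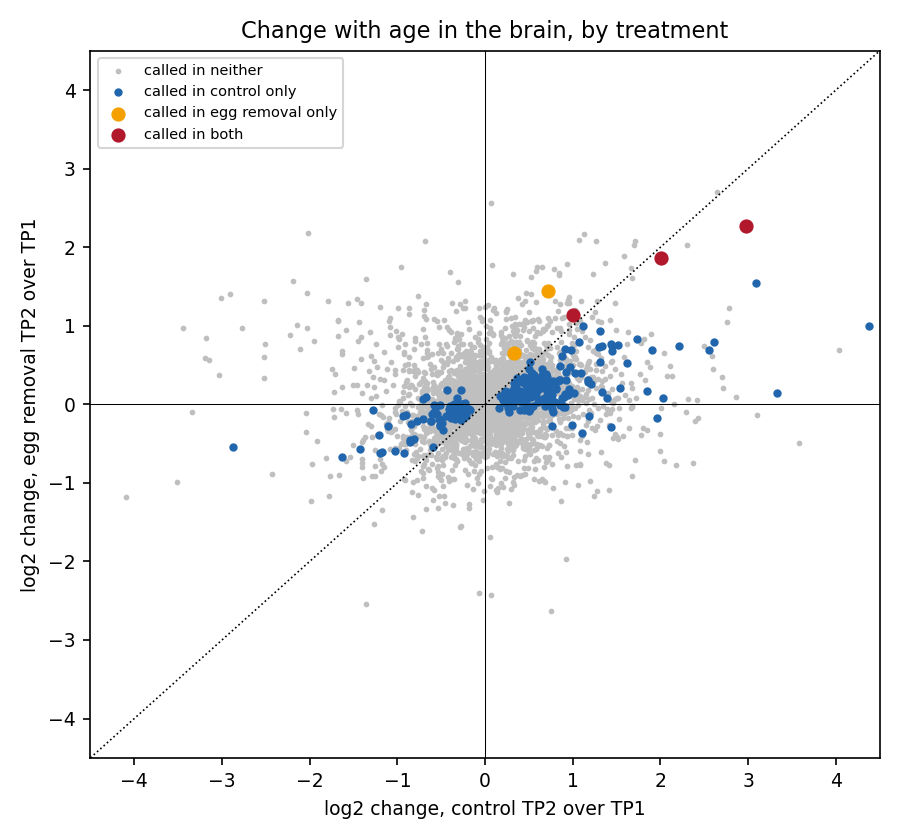
Log2 change, TP2 over TP1, in egg removal brains (vertical axis) against control brains (horizontal axis), 1 point per gene, coloured by the treatment in which it was called, with a dotted line of equal change. Genes called in control lie mostly between that line and the horizontal axis, and 1 gene lies outside the axes.

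The genes with the smallest interaction p, 3 in each direction, are not those with the largest estimates, since 214 genes had an interaction of 1 or more and 244 of -1 or less. LOC110119810 had 117, 178, 119, 178 and 124 normalized read counts in egg removal TP2 queens, against 126, 134, 172, 193, 237 and 196 in egg removal TP1 queens. The groups overlapped, with a log2 change of -0.29 in egg removal and 1.43 in control, and the interaction was -1.73 (adjusted p = 0.0709, limma). LOC100648414 had a log2 change of -0.28 in egg removal and 0.77 in control, with an interaction of -1.05 (adjusted p = 0.214, limma). LOC100648759 went the other way, with 0.19 in egg removal and -0.28 in control and an interaction of 0.47 (adjusted p = 0.277, limma). LOC100644903 had an interaction of 0.61 (adjusted p = 0.277, limma) and LOC100650361 one of 0.41 (adjusted p = 0.664). None passed.

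Few genes could be tied to a known role. Pathway lists for juvenile hormone, insulin, immunity, the circadian clock, oxidative stress, protein folding and neuropeptides could not be built, since gene identifiers are not paired with product names in the tables used, and 9 genes of the brain table carry a symbol that is not a locus number. Of those lists, Kr-h1, Def and fem were found by symbol, and none of these 3 passed in egg removal brains. Kr-h1 had 1088, 758, 981, 1017 and 1107 normalized read counts at TP2, against 1255, 1070, 1257, 1066, 975 and 926 at TP1. The groups overlapped, and the log2 change of -0.14 (95% interval -0.51 to 0.22) did not pass (adjusted p = 0.994, limma). Control brains had a change of -0.64 in Kr-h1, just short of the threshold (adjusted p = 0.0529, limma). The interaction of 0.49 did not pass (adjusted p = 0.999, limma).

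Def, which encodes the antimicrobial peptide defensin, varied widely between queens of one group. It had 2342, 6676, 2371, 578 and 12981 normalized read counts at TP2, against 32162, 153, 6322, 4256, 676 and 1309 at TP1. A log2 change of 0.48 with an SE of 1.29 leaves a wide interval, -2.23 to 3.19, and did not pass (adjusted p = 0.994, limma). The mean count of Def went the other way, at 4990 for TP2 and 7480 for TP1. The sign of the Def estimate turned to -0.041 without TP2 replicate 5 and to -0.29 without TP1 replicate 2. The feminizer gene fem, which acts in sex determination, had 1618 to 2951 at TP2 and 1651 to 2832 at TP1 (log2 change 0.10, SE 0.22). VSP, a venom serine protease, had a log2 change of 0.26 (SE 0.39), which was -0.031 without TP2 replicate 5. Of the other symbols, npve had 0.40 (SE 0.27), Mpk -0.19, F1 0.52, F2 0.97 and F3 0.49, all with an adjusted p of 0.994 (limma). Among the symbols named here, npve alone passed in control brains (log2 change 1.09, adjusted p = 0.032, limma). Its interaction of -0.69 did not pass (adjusted p = 0.999, limma). Single libraries moved the egg removal estimates. With 1 library left out, npve ran between 0.10 (without TP2 replicate 5) and 0.54, Mpk between -0.27 and -0.11 (without TP1 replicate 1), and F1 between 0.34 (without TP2 replicate 3) and 0.86 (without TP1 replicate 3). F2 ran between 0.50 (without TP1 replicate 6) and 1.79 (without TP2 replicate 2), and F3 between 0.058 (without TP2 replicate 3) and 1.05 (without TP1 replicate 3).

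LOC100644055 varied widely between queens of one group. It had 4824010, 5599, 8498970, 5278680 and 3344180 normalized read counts at TP2, against 10046400, 15210, 18776100, 8095270, 19848 and 172467 at TP1. It was the highest gene in 4 of 5 TP2 libraries and 3 of 6 TP1 libraries, against 0 of 5 control TP2 and 2 of 6 control TP1 libraries. Its median was 525 in the fat body table and 33.1 in the ovary table. Its log2 change in egg removal was 1.01 with an SE of 2.35 (adjusted p = 0.994, limma), and -0.073 without TP1 replicate 2. The mean count went the other way, at 4390290 for TP2 and 6187550 for TP1, so no direction can be given for LOC100644055. With its log2 level as a covariate 9 genes passed, all higher at TP2 and including the 5 called genes, and its part in the calls was not tested further.

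LOC100650436, the gene with the highest median in the fat body table, served as the marker of fat body RNA. It had 62980, 19706, 366381, 71494 and 210215 normalized read counts in brains at TP2, against 1013120, 49669, 833938, 184972, 105296 and 102659 at TP1. The groups overlapped (log2 change -1.17, SE 1.13, adjusted p = 0.994, limma), and a two-sided exact permutation test gave p = 0.281. Control brains averaged 3105 at TP2 and 68693 at TP1 (log2 change -4.09, SE 1.13, adjusted p = 0.0571, limma). The interaction of 2.92 did not pass (adjusted p = 0.999, limma). The fat body median of this gene was 4851420 in its separately scaled table. Fat body means were 4594090 at TP2 and 10905800 at TP1 in egg removal, and 361967 at TP2 and 3084130 at TP1 in control. The marker thus varied within fat body itself, so its brain level cannot by itself measure the amount of fat body RNA. The part of LOC100650436 in the 5 calls was not tested.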

How the data were processed

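Messenger RNA of single brains was sequenced from stranded libraries on 2 lanes, per the labels. The deposited values are signal values, normalized read counts that the authors scaled within each tissue. This was read from the values, which are equal in their median ratio to each gene's geometric mean. Per the submitters' processing notes, kallisto 0.46.1, R 4.0.1 and DESeq2 1.28.1 were used, with no role given. For genome build, annotation and gene filter, nothing is given in the sources used. Of the brain values 1.72% were 0. Depth was estimated as the total divided by the approximate value of 1 read.

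Genes with a mean of at least 1 in at least 1 group were kept. Log2 of the value plus 1 was fitted with limma 3.58.1 (R 4.3.3, statmod 1.5.0; trend and robust options) with a mean for each of the 4 brain groups. Fold changes on this scale understate those of low genes. Benjamini-Hochberg adjustment ran over 10388 genes per comparison, and a gene was called under 0.05. The p-values set each change against the spread between queens, pooled over the 4 brain groups with information shared across genes. Library measures were compared with exact permutation tests in Python 3.11.15 (scipy 1.17.1, pandas 2.3.3). The fit was tested on simulated data. A RefSeq gene table matched 93.4% of identifiers.

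Named genes were all called genes, the next 10 per direction, the 5 per direction with the smallest p among genes called in control, 3 per direction for the interaction, listed symbols and LOC100644055. Members and lists were chosen with earlier results of these data known. Alternatives were the scaling, pseudocount, filter, libraries fitted, variance model, replicate number as a block, depth and LOC100644055 as covariates, threshold, and each library left out. The correlation of library deviations did not pair samples by replicate number, and no 2 libraries were duplicates.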

Additional observations from a re-analysis of the deposited data

Results flagged for a closer look

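In 9 of 94 sets, each of 1 treatment at 1 time point, a library lay far from the others of its group. Chance would give about 5%. The sets were the called, next and listed genes and LOC100644055 in egg removal, the 5 called genes in control, and library measures in egg removal. All 9 were genes in egg removal, so their share of those sets is higher than their share of all 94. Values were not log-transformed for this. In normalized read counts, TP2 replicate 5 stood high for LOC100651942 at 1251 (nearest 1018) and for npve at 75932 (nearest 31835). TP2 replicate 3 stood low for LOC100642641 at 1445 (nearest 1772). At TP1, replicate 1 stood high for Def at 32162 (nearest 6322), and replicate 5 for LOC100651942 at 1162 (nearest 529). TP1 replicate 3 stood low for LOC100644424 at 401 (nearest 551) and high for F1 at 31.8 (nearest 11.3), F2 at 50.9 (nearest 11.3) and F3 at 41.4 (nearest 13.9).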

How the results depend on the processing

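Against 5 calls in egg removal, 267 in control and 0 for the interaction, scaling libraries to the same total gave 3 in egg removal and 27 in control, and totals equalised without LOC100644055 gave 37 in control. Fitting the groups of each contrast alone gave 0 in egg removal and 112 in control. Weights per library gave 46, 1156 and 4 in egg removal, control and the interaction, and weights per group 136 in control. LOC100644055 as a covariate gave 9 in egg removal and 657 in control. An adjusted p under 0.1 gave 8, 615 and 1, and a log2 change of at least 1 gave 46 in control. Leaving out 1 library gave 4 to 24 calls in egg removal, 140 to 653 in control and 0 to 2 for the interaction. In egg removal it was 24 without TP1 replicate 5 and 8 without control TP2 replicate 6. In control it was 653 without control TP2 replicate 3, 176 without control TP2 replicate 6, and 140, 150 and 173 without control TP1 replicates 2, 4 and 6. The interaction gave 2 calls without control TP2 replicate 3 and 1 each without egg removal TP1 replicate 1 and control TP2 replicate 2. Other alternatives moved no count by over 1.5 times. The replicate number as a block, which did not pair the queens, gave 5, 284 and 0 calls; 0 of 5 egg removal numbers correlated best with themselves.

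Leaving out 1 library gave egg removal log2 changes of -0.29 to 1.25 for Def, -0.031 to 0.50 for VSP and -0.073 to 2.98 for LOC100644055 (the lowest are without TP1 replicate 2 for Def, at -0.29, and for LOC100644055, and without TP2 replicate 5 for VSP; Def without TP2 replicate 5 was -0.041). The interaction of LOC100648224 turned to 0.11 with estimated depth as a covariate. The cause of these moves was not tested. With 5 and 6 queens, changes of genes with low values were mostly not bounded.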
